A study of Mus musculus with 36 samples.

Results

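Nuclear-encoded subunits of the respiratory chain were followed in the blood of Townes mice, a model of sickle cell disease whose globin genes are human. The 70 genes were taken from the count table by symbol. Their symbols begin with Ndufa, Ndufb, Ndufc, Ndufs, Ndufv, Sdha to Sdhd, Uqcr, or Cox4 to Cox8. From these, 8 Ndufaf assembly factors and 1 pseudogene were dropped. Counts were used only to keep the transcript with the highest total for each gene, although earlier results of these data were known. The members were 70 of 16812 genes in the table. Complex I contributed 38 members, complex II 4, complex III 8 and complex IV 16. The prefix Sdha also caught 4 complex II assembly factors, Sdhaf1 to Sdhaf4, which are not subunits and are described apart from them. Ndufa4 was counted with complex I by its symbol, although textbooks now place its protein in complex IV, and Cox7a2l, counted with complex IV, is known as a factor of respiratory supercomplexes.

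RNA of blood whose cell type is labelled erythrocytes was sequenced after globin transcripts had been depleted with GLOBINclear. The 36 libraries were 12 groups of 3: MIR29B or a scrambled control, at 2 or 3 mg/kg, at week 0, 2 or 4, delivered by mini-osmotic pump into Townes mice in every group. The series title describes MIR29B as modified with cholesterol, and its stated aim is to follow intermittent dosing and its effects on expression across the genome. The genotype field of the labels calls MIR29B libraries an overexpression of MIR29B. Ages were not given in the labels, nor whether week 0 blood was drawn before dosing, so at week 0 MIR29B and scrambled name the arm and not an exposure. Neither was it stated whether libraries came from separate animals or whether weeks share animals, so p-values measure the spread between these samples, which may be technical.

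Library totals were 10.7 to 45.65 M counts over all transcripts and 6.824 to 31.72 M over the 1 transcript kept per gene. The erythroid enzyme that starts the heme pathway, Alas2, averaged 102990 CPM and was at least 58920 CPM in each library, and 19 of 20 listed erythroid genes were in the table. White cell and platelet transcripts were counted as well. S100a9 of the neutrophil list had a mean of 343 CPM and Lyz2 of the monocyte and macrophage list 353 CPM. Means were 60.4 CPM for Cd79a of B cells, 26.8 CPM for Tcf7 of T cells and 97.5 CPM for Itga2b of platelets. No marker of these lists that was in the table was at 0 in every library. In bulk blood, fewer cells of a type and less RNA per cell cannot be told apart.

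The respiratory chain passes electrons from NADH through complex I, or from succinate through complex II, to coenzyme Q, on through complex III to cytochrome c and through complex IV to oxygen. Complexes I, III and IV pump protons across the inner mitochondrial membrane, and ATP synthase uses the gradient. Most subunits are encoded in the nucleus, made on cytosolic ribosomes and imported. Red cell precursors contain mitochondria, reticulocytes clear them during maturation, and mature erythrocytes have none, whereas white cells and platelets keep theirs.

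Sequences are shown for the microRNA named in the treatment and for the members whose 3′ UTR holds a match to its seed. The mature mouse miR-29b-3p in RefSeq is encoded at chr1:195037091-195037113 on the plus strand and chr6:31063025-31063047 on the minus strand (GRCm38.p6), and capitals mark its seed, bases 2 to 8. The sequence of the administered oligonucleotide itself was not given in the sources used here.
mmu-miR-29b-3p: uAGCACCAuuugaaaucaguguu

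The seed's complement was searched in the 3′ UTR of 1 GENCODE transcript per gene as the 8-mer TGGTGCTA and the 7-mers TGGTGCT and GGTGCTA. Of 64 members that had enough counts to be tested, 1 held the 8-mer (1.56%), against 316 of 11282 tested genes with a 3′ UTR (2.8%). Any of the 3 forms was found in 3 of 64 members (4.69%), against 1933 of the 11282 genes (17.1%). Members have short 3′ UTRs, with a mean of 374 bases against 1463. The 8-mer lay in Sdhc, a membrane anchor of complex II, at chr1:171128672-171128699. This position lies beyond the 3′ end of the counted RefSeq transcript of Sdhc (chr1:171129157-171150640) and is in a GENCODE transcript that extends farther. The 7-mers lay in Cox7b, a small complex IV subunit, at chrX:106022347-106022373 and at 2 places in Sdhaf2, which helps attach FAD to Sdha, at chr19:10500909-10500935 and chr19:10500616-10500642 (GRCm38). Cox7b is on the plus strand and the other two genes on the minus strand, and capitals mark the match.
Sdhc: gctttgtttgTGGTGCTAggggtcaaag
Cox7b: atctgaaataGGTGCTAatttttcagc
Sdhaf2, first site: gggggatggaGGTGCTAaacagacagg
Sdhaf2, second site: caagcccaagGGTGCTAtgtaaacagt

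Transcripts of members took 0.479% to 1.71% of the counts of a library, with a median of 0.702%. Levels below are library-scaled CPM values (TMM method), divided by transcript length in kilobases where genes are compared with each other. Lengths were taken from GENCODE, limited to the gene's RefSeq span, and can differ from those of the counted RefSeq transcripts. Cox6a1, a small complex IV subunit, led with 3911 ± 1897 CPM per kilobase (SD, n = 36), and was above the next member, Uqcrh, in 36 of 36 libraries. It alone made up 19.8% to 36.4% of the members' counts. Uqcrh, the hinge subunit of complex III, averaged 1353 CPM per kilobase, followed by Cox6c with 1111, Ndufa1 with 997, Cox6b2 with 967 and Cox8a with 778. The order of these neighbours was not fixed: Cox6c was above Ndufa1 in 21 of 36 libraries, and Ndufa1 above Cox6b2 in 21 of 36.

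Levels spanned orders of magnitude within complexes I, III and IV. In complex I the highest were Ndufa1 and Ndufa2, at 997 and 249 CPM per kilobase, and the lowest were Ndufab1, the mitochondrial acyl carrier protein, at 0.696 CPM per kilobase, and Ndufa4l2 at 0.0083 CPM per kilobase. Core subunits were in the lower part of the complex I range, at 2.76 CPM per kilobase for Ndufv1, which binds NADH and FMN, 4.35 for Ndufv2, 5.01 for Ndufs1, 8.76 for Ndufs3, 11.4 for Ndufs8 and 15.7 for Ndufs7. Per kilobase, complex II was low in each of its 4 subunits. Its iron-sulfur subunit Sdhb averaged 11.6 CPM per kilobase, the flavoprotein Sdha 8.66, and the anchors Sdhd 5.91 and Sdhc 1.63. The Sdhc value may be too low, since the GENCODE length used, 3171 bases, extends past the counted transcript. Without division by length Sdha averaged 25.1 CPM, Sdhb 13.2, Sdhd 7.27 and Sdhc 5.18.

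In complex III, Uqcrh and Uqcr11 (313 CPM per kilobase) were highest, and the Rieske protein Uqcrfs1 (22.2) and the core protein Uqcrc1 (14.7) lowest. The other core protein, Uqcrc2, averaged 45.8 CPM per kilobase. In complex IV the core-binding subunits Cox4i1, Cox5b and Cox5a averaged 381, 69.9 and 18.7 CPM per kilobase. Of the assembly factors, Sdhaf1 averaged 4.74 CPM per kilobase, Sdhaf4 2.82, Sdhaf2 1.72 and Sdhaf3 0.0361.

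**Figure D1:**
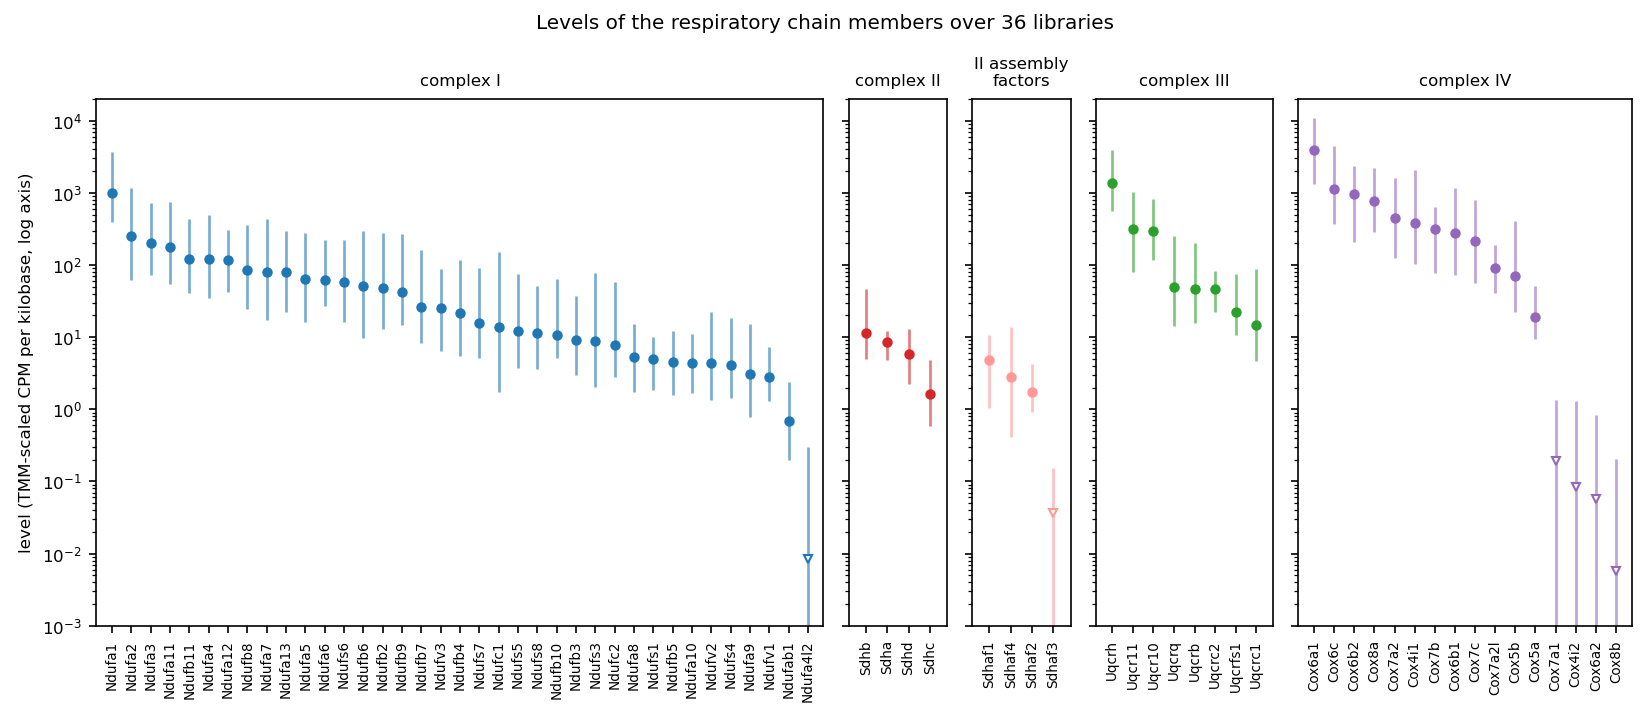
Level of 69 of the 70 members in CPM per kilobase on a log axis, grouped by complex. Points are means and lines run from the lowest to the highest of 36 libraries; open triangles are the 6 members with too few counts to be tested, and a line that meets the bottom edge includes a library at 0. Cox6a1 stands at 3911 CPM per kilobase and the subunits of complex II between 1.63 and 11.6. Lengths are from GENCODE, and that of Sdhc, the lowest of these subunits, extends past its counted transcript.

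Several complex IV subunits exist as a pair of isoforms, one widely expressed and one known from particular tissues such as muscle, lung or testis. In 5 of 6 such pairs only the widespread form had more than traces of counts. Cox4i2, known from lung, had 38 counts in all 36 libraries together, Cox6a2 and Cox7a1, known from heart and skeletal muscle, had 26 and 40, Cox8b had 2, and Ndufa4l2, known as a gene induced by hypoxia, had 4. With Sdhaf3 (106 counts) these made up the 6 members that were not tested.

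The exception was Cox6b2, the form known from testis. It averaged 967 ± 479 CPM per kilobase, against 277 ± 225 for the widespread Cox6b1 (SD, n = 36 each). Cox6b2 was the higher of the pair in 36 of 36 libraries, and the ratio of the means was 3.49, with 1.78 to 6.21 in single libraries. The table lists 6 transcripts of Cox6b2, and the lowest held 29% of the counts of the highest, which is the one used. In the 6 libraries of each arm and week Cox6b2 ran from 309 through a median of 570 to 1286 CPM in MIR29B week 0, from 569 through 707 to 924 CPM in MIR29B week 2 and from 217 through 366 to 731 CPM in MIR29B week 4. In the scrambled arm it ran from 215 through 352 to 839 CPM at week 0, from 115 through 327 to 1162 CPM at week 2 and from 415 through 487 to 728 CPM at week 4. The ranges of the arms overlapped at each week.

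Members varied together from library to library. A member score, the median over the 64 tested members of log2(CPM + 0.5) centred on each member's own mean, ran from -0.901 to 1.966, and between 1 and 63 of the 64 members were above their own mean in a library. The highest scores were 1.966 in scrambled 3 mg/kg week 2 replicate 1, and 1.512 in MIR29B 2 mg/kg week 0 replicate 2. The lowest, -0.901, was in MIR29B 3 mg/kg week 0 replicate 1, a library of the same arm and week as the second highest.

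**Figure D2:**
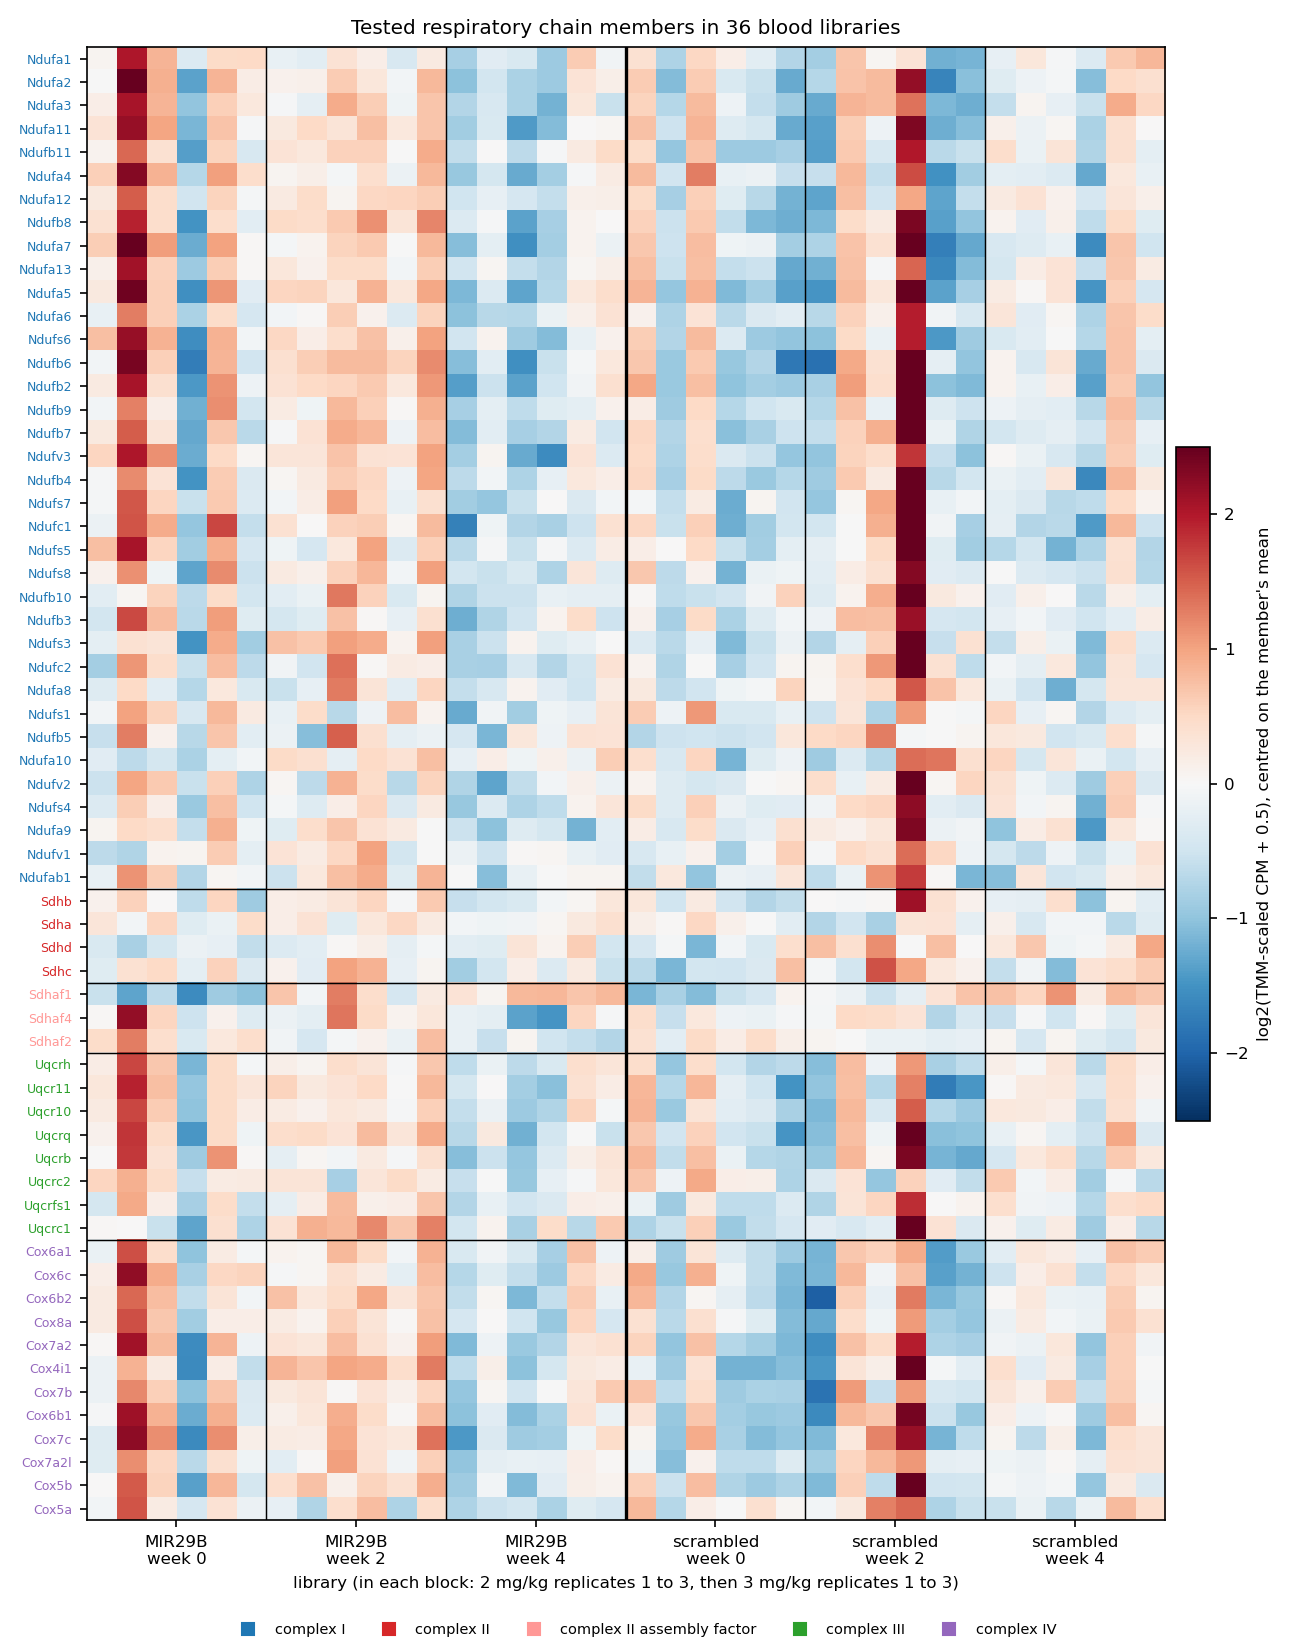
Each row is one of 63 tested members, its name coloured by complex, and each column a library; colour gives log2(CPM + 0.5) minus the member's mean, and values beyond the scale take its end colour. Most of a column shares one colour, dark red in MIR29B 2 mg/kg week 0 replicate 2 (score 1.512) and scrambled 3 mg/kg week 2 replicate 1 (score 1.966), while Sdha, Sdhd and Sdhaf1 follow the columns little.

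Against the median of the other members over 36 libraries, Spearman's rho of a member had a median of 0.85, and it was above 0.5 for 53 of 64 members. These coefficients are descriptions, since all members share the same libraries and scaling. Cox7a2 (0.99), Cox6b1 (0.97) and Ndufb6 (0.96) followed the others most closely. Among the lowest were Sdhd (-0.2), Sdhaf1 (-0.09), Sdha (0.23) and Ndufa10 (0.23). Of the other complex II subunits, Sdhb reached 0.75 and Sdhc 0.35.

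The score moved with the counts of short transcripts in general. The median length of tested members was 738.5 bases, against 2838 bases for all tested genes of known length, and 65.6% of members were under 1000 bases, against 7.75% of those genes. A length index, the slope of log2(CPM + 1) on log2 transcript length over other genes with a mean of at least 10 CPM, decreases as short transcripts gain counts, and ran from -1.068 to -0.207. Over 36 libraries the score and the index had Pearson's r = -0.89 and Spearman's rho = -0.89, with r = -0.83 without the 2 libraries farthest from the median index and r = -0.9 within groups. Ribosomal protein genes took 4.733% to 15.48% of the counts, and this share had r = 0.86 and rho = 0.76 with the score. The summed CPM of platelet markers had r = 0.61, which was 0.33 without its 2 farthest libraries, that of monocyte and macrophage markers r = -0.37 and rho = -0.45, with r = -0.35 without its 2 farthest libraries and -0.46 within groups, and that of neutrophil markers r = 0.07. No cause of this joint movement was tested. The members that followed the others least were mostly long (Sdha 2900 bases, Ndufa10 2020 bases), although Sdhaf1, with 967 bases, was not.

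**Figure D3:**
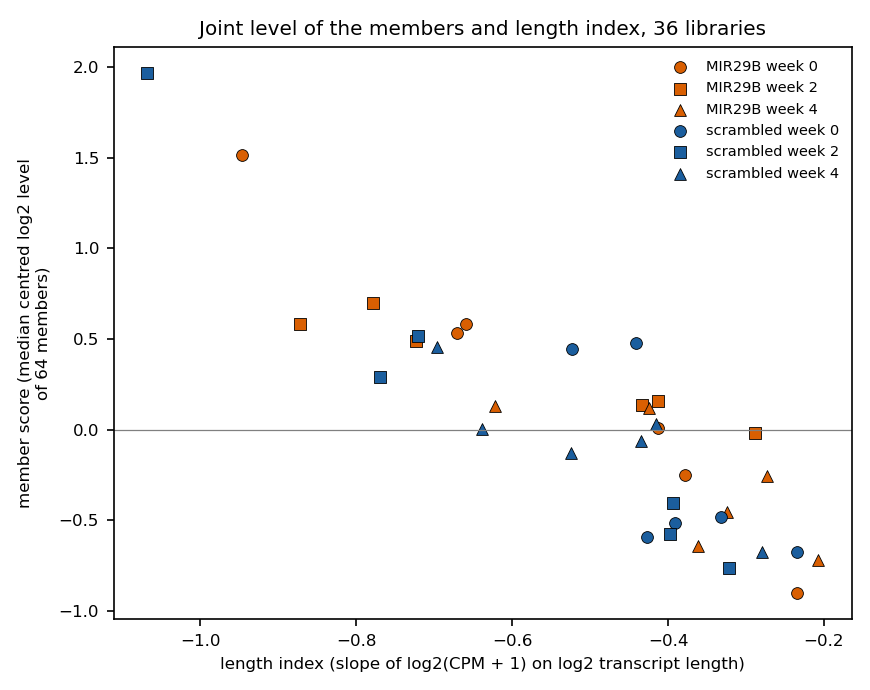
Member score against length index for 36 libraries, orange for MIR29B and blue for scrambled, with circles, squares and triangles for weeks 0, 2 and 4. The score falls as the index rises (r = -0.89), and the 2 libraries at the upper left have scores of 1.966 (scrambled week 2) and 1.512 (MIR29B week 0).

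The first comparison set MIR29B against scrambled at each week, the doses averaged. At week 0 it was a comparison of arms and not of a stated exposure. No member was called at an adjusted p under 0.05 by edgeR's quasi-likelihood test with Benjamini-Hochberg adjustment at week 0, 2 or 4, and neither was any of the 11953 genes tested (0%). DESeq2 called no member either, among 14 genes at week 0 (0% of all genes higher and 0.117% lower), 76 at week 2 (0.402% and 0.234%) and 0 at week 4. An edgeR fit with no filter on low counts called 3 members higher at week 0, among 163 of 16812 genes (0.333% higher and 0.636% lower). Most members had positive values at week 0 and negative ones at week 4. Their median log2 fold change was 0.62 at week 0, with 58 of 64 positive, -0.10 at week 2, with 28 of 64 positive, and -0.30 at week 4, with 6 of 64 positive. The medians over all genes were -0.05, -0.09 and 0.03. The week 0 median of members was 0.36 without MIR29B 3 mg/kg week 0 replicate 2 and 0.39 without MIR29B 2 mg/kg week 0 replicate 2, and the week 4 median was -0.11 without scrambled 3 mg/kg week 4 replicate 2. At an unadjusted p under 0.05, 11 members were higher and none lower at week 0 (2.33% of all genes higher and 4.79% lower), 1 was higher and 1 lower at week 2 (3.87% and 5.97%), and none passed at week 4 (1.57% and 1.06%). No member had its 6 MIR29B libraries all above or all below the 6 scrambled ones, a separation found upward and downward in 0.092% and 0.176% of all genes for week 0, 0.259% and 0.117% for week 2, and 0.092% and 0.0586% for week 4.

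Several lists of blood cell markers also had fold changes mostly of one sign between the arms, and no marker was called by edgeR. Neutrophil markers had lower values in MIR29B libraries for 14 of 14 at week 0 (median log2 fold change -1.12), 13 of 14 at week 2 (-0.65) and 11 of 14 at week 4 (-0.59). Monocyte and macrophage markers were lower for 7 of 9, 9 of 9 and 6 of 9 at these weeks, with medians of -0.71, -0.74 and -0.03. Their summed level ran from 319.78 through 401 to 607.33 CPM in MIR29B and from 392.76 through 598.1 to 1779.9 CPM in scrambled libraries at week 2. Erythroid markers were higher for 13 of 19, 17 of 19 and 8 of 19, with medians of 0.22, 0.47 and -0.02, and at week 2 their sum ran from 172560 through 185500 to 214230 CPM in MIR29B and from 100950 through 134500 to 191630 CPM in scrambled libraries. Platelet markers were lower for 9 of 10, 4 of 10 and 8 of 10, with medians of -0.51, 0.11 and -0.19. B cell markers were higher for 8 of 8 at each week with the doses averaged and at 3 mg/kg, but for 5, 4 and 4 of 8 at 2 mg/kg. T and NK cell markers were higher for 10, 9 and 7 of 12. The part of these markers in the members' values was not tested.

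At week 0 the member score ran from -0.901 through a median of 0.2715 to 1.512 in the 6 MIR29B libraries, against -0.676 through -0.4975 to 0.478 in the 6 scrambled ones. The arms overlapped, with the lowest of all scores and the second highest both in the MIR29B arm. The largest log2 fold changes were 1.21 ± 0.50 (SE) for Cox7c, 1.18 ± 0.61 for Ndufc1 and 1.11 ± 0.52 for Ndufa5, and the lowest were -0.40 ± 0.28 for Sdhaf1, -0.29 ± 0.26 for Ndufa10 and -0.21 ± 0.27 for Sdhd, all with an edgeR adjusted p of 0.671 or more. All 12 tested complex IV members and all 8 of complex III had positive values, as did 33 of 37 in complex I and 3 of 4 in complex II. In complex II the values were 0.06 ± 0.20 for Sdha, 0.33 ± 0.29 for Sdhb and 0.53 ± 0.36 for Sdhc. The complex I core values were 0.29 for Ndufs1, 0.55 for Ndufs3, 0.74 for Ndufs7, 0.48 for Ndufs8, -0.04 for Ndufv1 and 0.37 for Ndufv2. The complex III values were 0.12 for Uqcrc1, 0.08 for Uqcrc2 and 0.43 for Uqcrfs1, and the core-binding subunits of complex IV, whose core is encoded in mitochondrial DNA, had 0.59 for Cox4i1, 0.18 for Cox5a and 0.62 for Cox5b. Of the paired isoforms, Cox6a1 had 0.64 ± 0.37, Cox6b1 1.01 ± 0.46, Cox6b2 0.64, Cox7a2 0.94 ± 0.45 and Cox8a 0.57.

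The length index ran from -0.946 through -0.536 to -0.234 in MIR29B week 0 libraries and from -0.523 through -0.409 to -0.234 in scrambled ones. Members under 700 bases had a median log2 fold change of 0.76 (30 members), and those over 1000 bases one of 0.31 (22 members). With the length index as a covariate the week 0 median of members was 0.10, and at 2 mg/kg it turned from 0.70 to -0.12. The 2 mg/kg median was 0.17 without MIR29B 2 mg/kg week 0 replicate 2. At 2 mg/kg all MIR29B libraries were above all scrambled ones for 3 members, Sdhc, Ndufs5 and Ndufv3 (3.9% of all genes), and at 3 mg/kg all were below for Sdhaf1 alone (6.7%) and above for no member (3.82%).

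At week 2 the score ran from -0.02 through 0.322 to 0.696 in MIR29B libraries and from -0.763 through -0.0585 to 1.966 in scrambled ones. The MIR29B libraries were close together, while the scrambled ones held the highest library of the study. The small median of -0.10 rests on that library: without scrambled 3 mg/kg week 2 replicate 1 it was 0.67, without any other single library it ran from -0.30 to 0.11, and at 3 mg/kg the median of -0.42 became 1.14. With the length index as a covariate these medians were 0.40 and 0.21. Of 64 members, 1 was higher and 1 lower at an unadjusted p under 0.05 (3.87% and 5.97% of all genes), both in complex II. Sdhd had 5.27 through 6.14 to 7.56 CPM in MIR29B libraries and 6.77 through 10.5 to 15.9 CPM in scrambled ones, a log2 fold change of -0.71 ± 0.27 with an edgeR adjusted p of 0.362. Sdha had 19.8 through 29.2 to 34.9 CPM in MIR29B libraries and 13.8 through 19.1 to 31.1 CPM in scrambled ones, a log2 fold change of 0.48 ± 0.20 with an edgeR adjusted p of 0.433. Both genes overlapped between the arms over 6 libraries. At 2 mg/kg alone the groups of 3 did not overlap for either of them, with Sdhd in the 1 member wholly below (4.77% of all genes) and Sdha among 6 wholly above (5.65%), with Sdhb, Ndufs3, Ndufa10, Cox4i1 and Uqcrc1. At 3 mg/kg Sdhaf2 alone was wholly above (4.38%) and no member wholly below (4.34%).

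The other week 2 extremes were 0.59 ± 0.38 for Cox6b2 and 0.47 ± 0.41 for Uqcr11 at the upper end, and -0.96 ± 0.60 for Ndufc1 and -0.93 ± 0.46 for Ndufc2 at the lower end. Core subunits of complex I had 0.03 for Ndufs1, -0.27 for Ndufs3, -0.52 for Ndufs7, -0.13 for Ndufs8, -0.20 for Ndufv1 and -0.63 for Ndufv2. Complex III had 0.24 for Uqcrc1, 0.31 for Uqcrc2 and -0.20 for Uqcrfs1, and the core-binding subunits of complex IV 0.20 for Cox4i1, -0.43 for Cox5a and -0.12 for Cox5b. None of these subunits had an unadjusted p under 0.05.

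At week 4 the score ran from -0.721 through -0.3545 to 0.131 in MIR29B libraries and from -0.673 through -0.03 to 0.453 in scrambled ones. The arms overlapped, with MIR29B libraries toward the lower end. The lowest log2 fold changes were -0.60 ± 0.42 for Ndufa3, -0.55 ± 0.45 for Uqcrb and -0.53 ± 0.37 for Cox5a, and the highest 0.33 ± 0.45 for Ndufs5, 0.30 ± 0.20 for Sdha and 0.14 ± 0.25 for Ndufa10. At 2 mg/kg the median was -0.51, against -0.08 at 3 mg/kg. The doses were not tested against each other. Without single libraries the 2 mg/kg median ran from -0.70 to -0.46, and the 3 mg/kg median from -0.32, without scrambled 3 mg/kg week 4 replicate 1, to 0.26, without scrambled 3 mg/kg week 4 replicate 2. Without the libraries over 5% ribosomal RNA the medians were -0.79 and -0.32, with 51 of 65 members negative at 3 mg/kg. The 2 mg/kg value then rests on MIR29B 2 mg/kg week 4 replicate 1 alone in its group. Of the 3 mg/kg week 4 libraries, this left out only scrambled replicate 1, the same library as above. At 2 mg/kg all MIR29B libraries were below all scrambled ones for 22 of 64 members, against 6.24% of all genes, and above for none, against 7.42% of all genes. These 22 included Cox6b1, Cox7b, Uqcrh, Uqcrfs1, Ndufa1, Ndufa4, Ndufv2 and Sdhb. Core subunits of complexes I to III over both doses were between -0.45 for Ndufv2 and 0.30 for Sdha. At 3 mg/kg 3 members were wholly above, Ndufs1, Ndufa10 and Sdha (4.42%), and 3 wholly below, Cox5a, Sdhc and Sdhaf2 (4.68%).

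The same 6 libraries were also apart in length index, at -0.207, -0.273 and -0.361 in MIR29B and -0.435, -0.525 and -0.416 in scrambled libraries. The share of ribosomal protein counts was 4.733%, 5.349% and 6.223% in MIR29B and 8.073%, 6.281% and 7.385% in scrambled libraries, also without overlap. With the length index as a covariate the 2 mg/kg median was -0.065, and the median over both doses turned to 0.07.

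**Figure D4:**
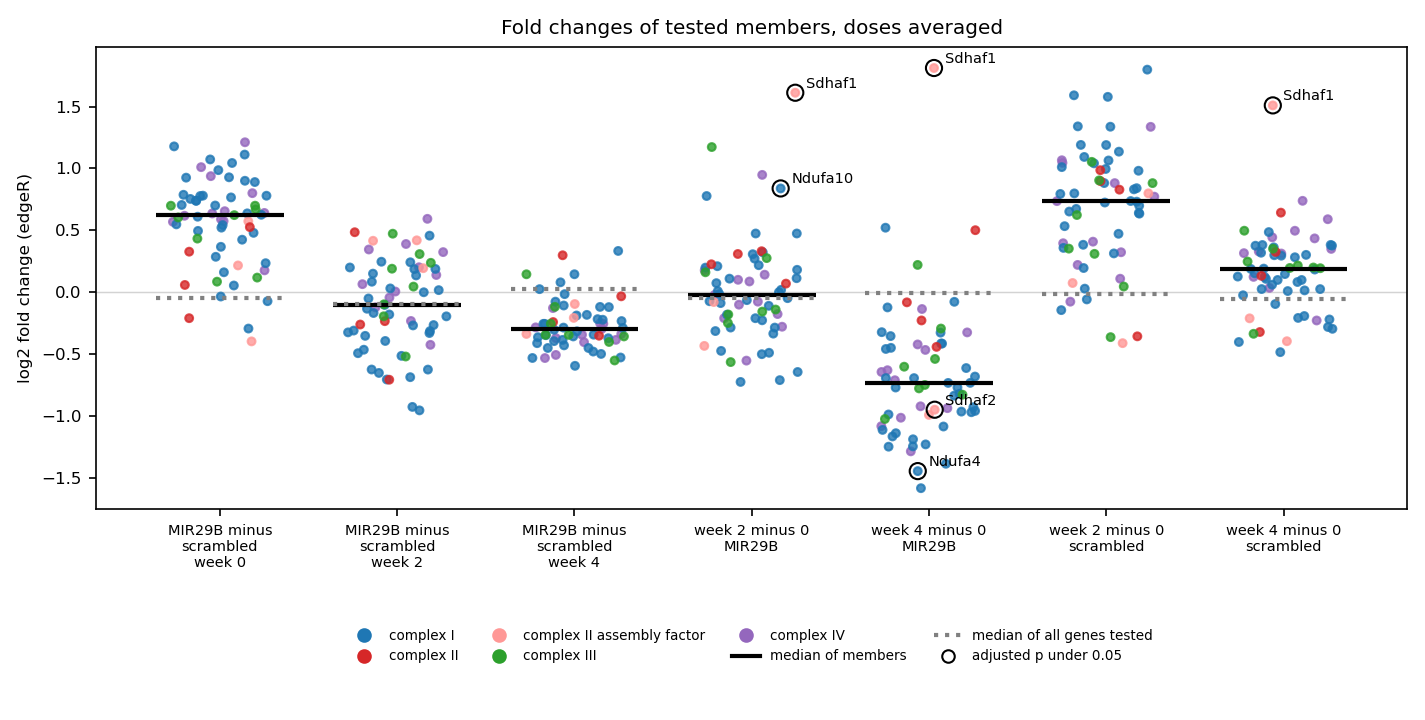
Log2 fold changes of 63 tested members in 7 comparisons with the doses averaged, coloured by complex; black bars are medians of all 64, dotted bars medians of all tested genes, and rings mark an adjusted p under 0.05. Medians of members are 0.62, -0.10 and -0.30 in the arm comparisons, and Sdhaf1 stands apart at 1.61, 1.81 and 1.51 in 3 of the comparisons of weeks.

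The second kind of comparison set weeks 2 and 4 against week 0 within an arm. Here genes were called in every comparison, and among the members Sdhaf1, a small factor that protects the iron-sulfur subunit Sdhb during assembly of complex II, rose most clearly. In the MIR29B arm Sdhaf1 had 2.55, 1.31 and 2.37 CPM at 2 mg/kg and 1.02, 1.92 and 1.72 CPM at 3 mg/kg at week 0. At week 2 it had 6.81, 3.78 and 10.4 CPM at 2 mg/kg and 5.60, 2.86 and 4.78 CPM at 3 mg/kg. At week 4 it had 5.20, 4.23 and 7.37 CPM at 2 mg/kg and 7.54, 6.76 and 7.39 CPM at 3 mg/kg. All 6 libraries of week 2 and all 6 of week 4 were above all 6 of week 0, which held for 3.14% and 2.95% of all genes.

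In the scrambled arm Sdhaf1 had 1.55, 2.07 and 1.63 CPM at 2 mg/kg and 2.55, 2.88 and 4.26 CPM at 3 mg/kg at week 0. It had 3.93, 3.55 and 2.62 CPM at 2 mg/kg and 3.33, 5.18 and 6.89 CPM at 3 mg/kg at week 2. At week 4 it had 6.95, 6.06 and 9.25 CPM at 2 mg/kg and 4.72, 7.40 and 6.67 CPM at 3 mg/kg. Week 4 was wholly above week 0, which held for 0.828% of all genes, and week 2 overlapped it (0.502% of all genes were wholly above).

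The Sdhaf1 log2 fold changes were 1.61 ± 0.28 at week 2 in the MIR29B arm (edgeR adjusted p = 0.000782), 1.81 ± 0.28 at week 4 in the MIR29B arm (0.000101) and 1.51 ± 0.28 at week 4 in the scrambled arm (0.00464). At week 2 in the scrambled arm the value was 0.80 ± 0.28 with an edgeR adjusted p of 0.097, where DESeq2 called it. The difference between arms in the change of Sdhaf1 was 0.81 ± 0.39 at week 2 (adjusted p = 0.884) and 0.30 ± 0.39 at week 4 (adjusted p = 0.897), so no difference between arms was shown. In its 3 called comparisons Sdhaf1 stayed called without any single library and under each alternative analysis run. It lies on chromosome 7 at 30321409 to 30322375 (GRCm38.p6), a span of 967 bases. A GENCODE exon of Sdhaf1 overlaps E130208F15Rik on the opposite strand by 1733 bases, which is more than that span. How much of the counted transcript is shared was not determined. E130208F15Rik has no entry of its own in the table. As the strand setting of the counting is not stated, reads from any shared part cannot be told apart. The counts behind these values were low, from 10 to 214 per library.

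Neutrophil markers moved over the same weeks. Their summed level ran from 180.43 through 335.2 to 622.53 CPM at week 0, from 793.51 through 973.1 to 1746.3 CPM at week 2 and from 588.2 through 866.7 to 1373.9 CPM at week 4 in the MIR29B arm. In the scrambled arm it ran from 198.96 through 664.9 to 1270 CPM, from 905.67 through 2191 to 3030.6 CPM and from 458.96 through 1115 to 1731.9 CPM at these weeks. Of 14 tested markers 8 rose by week 2 and 5 by week 4 in the MIR29B arm, 6 and 2 in the scrambled arm, and none of the 16 in the table was at 0 throughout. Of 9 monocyte and macrophage markers, 5 had positive values at week 2 and 8 at week 4 in the MIR29B arm (1 and 2 rose), and 8 and 7 in the scrambled arm (1 rose at each week). B cell markers had negative values for 7 of 8 and 8 of 8 in the MIR29B arm (1 fell at each week) and 7 of 8 at both weeks in the scrambled arm (1 fell at week 2). T and NK cell markers had negative values for 10 of 12 and 12 of 12 in the MIR29B arm. In the scrambled arm they had negative values for 11 of 12 and 9 of 12, with none called in either arm. Erythroid markers had positive values for 14 of 19 and 9 of 19 in the MIR29B arm (2 rose and 1 fell at week 2). In the scrambled arm erythroid markers were positive for 10 of 19 and 13 of 19 (1 fell at week 2). Platelet markers were positive for 8 and 5 of 10 in the MIR29B arm and 3 and 1 of 10 in the scrambled arm. No platelet marker was called. The part of these markers in the change of Sdhaf1 was not tested.

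**Figure D5:**
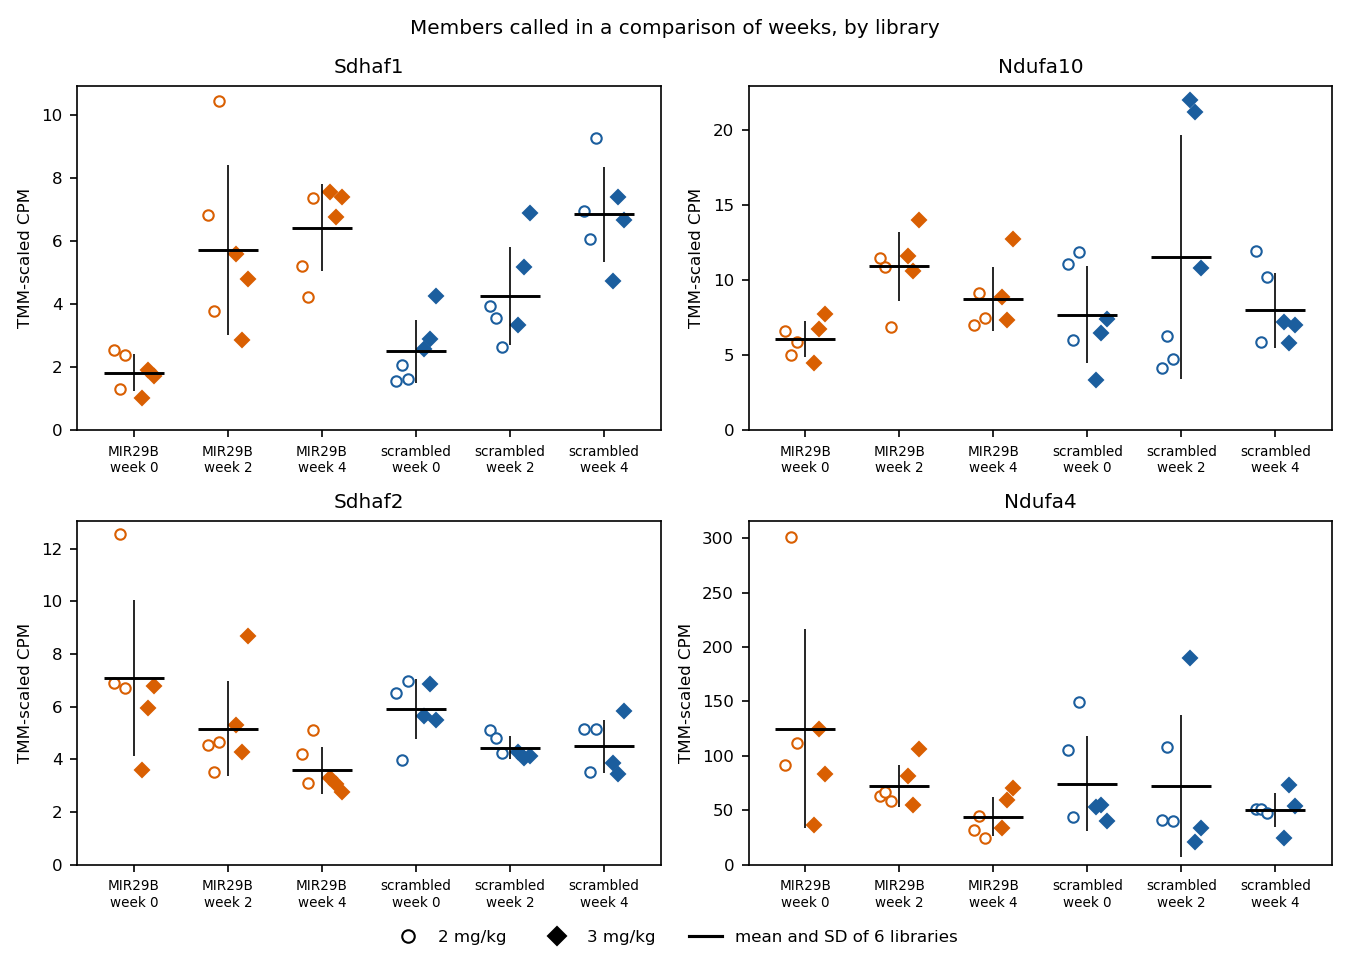
Scaled CPM of Sdhaf1, Ndufa10, Sdhaf2 and Ndufa4 in each library by arm and week, with open circles for 2 mg/kg, filled diamonds for 3 mg/kg, and bars and lines for the mean and SD of 6 libraries. Sdhaf1 is at 1.02 to 2.55 CPM in MIR29B week 0 libraries and at 2.86 or more in the MIR29B libraries of weeks 2 and 4, while 1 MIR29B week 0 library of Ndufa4 is at 301 CPM.

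At week 2 in the MIR29B arm 2 of 64 members were called, both higher (3.45% of all genes were higher and 1.99% lower). The second was Ndufa10, an accessory subunit of complex I, with 6.85 through 11.2 to 13.99 CPM at week 2 and 4.49 through 6.22 to 7.73 CPM at week 0. The weeks overlapped in the lowest library of week 2. Its log2 fold change was 0.84 ± 0.26 (edgeR adjusted p = 0.0485), and the call was lost in 28 of 36 fits that left out 1 library, with adjusted p-values from 0.0387 to 0.127 over the 36. Uqcrc1 had 1.17 ± 0.38 (adjusted p = 0.0647) and Cox4i1 0.95 ± 0.40 (0.164), and at the lower end Ndufa1 had -0.73 ± 0.34, Ndufa4 -0.71 ± 0.41 and Ndufa7 -0.65 ± 0.51. Core subunits of complexes I to III were between -0.32 for Ndufs1 and 1.17 for Uqcrc1. The median of members was -0.02 and 30 of 64 were positive. It was 0.28 without MIR29B 3 mg/kg week 0 replicate 2, 0.25 without MIR29B 2 mg/kg week 0 replicate 2, and -0.16 without MIR29B 2 mg/kg week 0 replicate 1, MIR29B 3 mg/kg week 0 replicate 1 or MIR29B 2 mg/kg week 2 replicate 3. Without the 2 libraries over 12% ribosomal protein counts 54 of 65 members were positive. At an unadjusted p under 0.05, 4 members were higher and 1 lower (10.4% and 9.98% of all genes).

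At week 4 in the MIR29B arm 1 member was called higher, Sdhaf1, and 2 lower, Sdhaf2 and Ndufa4 (2.64% of all genes were higher and 0.443% lower). Sdhaf2 had 2.75 through 3.21 to 5.12 CPM at week 4 and 3.60 through 6.74 to 12.6 CPM at week 0. Ndufa4 had 24.97 through 39.3 to 70.7 CPM at week 4 and 36.9 through 102 to 301 CPM at week 0. In both genes the weeks overlapped, and the highest week 0 library was the same, 2 mg/kg replicate 2. The log2 fold changes were -0.95 ± 0.25 for Sdhaf2 (edgeR adjusted p = 0.0248) and -1.45 ± 0.42 for Ndufa4 (edgeR adjusted p = 0.0495).

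Without MIR29B 2 mg/kg week 0 replicate 2, Sdhaf2 had -0.79 and an adjusted p of 0.103. The call was also lost without MIR29B 3 mg/kg week 0 replicate 2 (0.0664) or 3 (0.087), without MIR29B 2 mg/kg week 4 replicate 1 (0.0641) or 2 (0.0689), and without MIR29B 3 mg/kg week 4 replicate 3 (0.064). Ndufa4 was called in 10 of those 36 fits, with adjusted p-values from 0.0106 to 0.227, and with the length index as a covariate its value was -0.77 (adjusted p = 0.134). Leaving out any 1 of the libraries just named took the 3 calls to 1. Without scrambled 3 mg/kg week 2 replicate 1 the 3 calls became 5. The calls over all genes in these fits are not given here. DESeq2 called 6 members, adding Ndufa1, Ndufa7 and Ndufa11, each lower, among 782 genes (4.28% of all genes higher and 2.27% lower).

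Most other members of the MIR29B arm also had negative values at week 4. Their median was -0.73 with 5 of 64 positive (-0.47 without MIR29B 2 mg/kg week 0 replicate 2), and 27 of 64 members had an unadjusted p under 0.05 in the lower direction, against 6.92% of all genes, with 2 in the higher direction, against 10.2%. Ndufa7 had -1.59 ± 0.52 (edgeR adjusted p = 0.0859) and Ndufc1 -1.39 ± 0.61 (0.221). Core values were -0.77 for Ndufs1, -0.32 for Ndufs3, -0.93 for Ndufs7, -0.70 for Ndufs8, -0.08 for Ndufv1 and -0.70 for Ndufv2 in complex I. In complex II they were -0.08 for Sdha, -0.23 for Sdhb, -0.44 for Sdhc and 0.50 for Sdhd. In complex III they were 0.22 for Uqcrc1, -0.54 for Uqcrc2 and -0.29 for Uqcrfs1, and the core-binding subunits of complex IV had -0.14 for Cox4i1, -0.94 for Cox5a and -0.71 for Cox5b. The 30 short members had a median of -0.98 and the 22 long ones -0.37, and with the length index as a covariate the median of members was -0.11. The index ran from -0.622 through -0.3425 to -0.207 at week 4 and from -0.946 through -0.536 to -0.234 at week 0.

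In the scrambled arm no member was called by edgeR's quasi-likelihood test at week 2 (2.11% of all genes were higher and 1.1% lower), although 29 of 64 had an unadjusted p under 0.05 in the higher direction, against 11.5% of all genes, and none in the lower, against 8.86%. The smallest adjusted p was that of Ndufs3, a complex I subunit, which had 3.93 through 7.50 to 81.0 CPM at week 2 and 2.96 through 4.93 to 6.19 CPM at week 0. Its highest library was again 3 mg/kg replicate 1, and the weeks overlapped in the lower libraries. The log2 fold change of Ndufs3 was 1.59 ± 0.47 with an edgeR adjusted p of 0.0523, that of Ndufc1 1.80 ± 0.61 (0.0907), that of Ndufc2 1.58 ± 0.47 (0.0557) and that of Cox4i1 1.34 ± 0.40 (0.0557). At the lower end were Sdhaf2 with -0.41 ± 0.25, Uqcrc2 with -0.36 ± 0.28 and Sdha with -0.36 ± 0.20. Core subunits of complexes I to III ran from -0.36 for Sdha and Uqcrc2 to 1.19 for Ndufs7 and 1.59 for Ndufs3. The median of members was 0.74 with 58 of 64 positive, and it was -0.03 without 3 mg/kg week 2 replicate 1 and -0.20 with the length index as a covariate. The number of calls was 10 without scrambled 2 mg/kg week 2 replicate 1 or scrambled 3 mg/kg week 2 replicate 3, and 8 without scrambled 3 mg/kg week 2 replicate 2. Leaving out scrambled 2 mg/kg week 2 replicate 2, MIR29B 2 mg/kg week 0 replicate 1, MIR29B 3 mg/kg week 0 replicate 1 or 2, or MIR29B 2 mg/kg week 2 replicate 3 gave 1 call each. Calls over all genes in these fits without single libraries are not given here, so no share stands beside these counts. DESeq2 called 11 members, all higher, among them Ndufs3, Ndufc1, Ndufc2, Ndufs7, Cox4i1, Sdhb and Sdhd. It called 948 genes in all (4.95% of all genes higher and 2.98% lower).

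At week 4 in the scrambled arm Sdhaf1 was the 1 member called (0.36% of all genes were higher and 0.1% lower). The median of members was 0.18 with 50 of 64 positive, which turned to -0.13 with the length index as a covariate. The median was 0.00 without scrambled 3 mg/kg week 4 replicate 2, 0.05 without scrambled 2 mg/kg week 0 replicate 2, 0.30 without scrambled 3 mg/kg week 4 replicate 1, and 0.43 without the libraries over 5% ribosomal RNA. After Sdhaf1 the highest values were 0.74 ± 0.40 for Cox4i1 and 0.64 ± 0.27 for Sdhd, and the lowest were -0.49 ± 0.41 for Ndufa4 and -0.40 for both Ndufs5 and Sdhaf2. Core subunits of complexes I to III were between -0.34 for Uqcrc2 and 0.64 for Sdhd. At an unadjusted p under 0.05, 2 members were higher and none lower (4.71% and 5.06% of all genes).

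The change from week 0 was also compared between the arms. No member was called, and neither was any gene (0%), by edgeR's quasi-likelihood test. At an unadjusted p under 0.05, 1 member was higher and 5 lower at week 2 (2.74% of all genes higher and 2.87% lower), and none higher and 12 lower at week 4 (3.23% and 2.8%). The medians of members were -0.66 at week 2 and -0.90 at week 4, and with the length index as a covariate they were 0.29 and 0.01. The lowest values were -2.14 ± 0.85 for Ndufc1 at week 2, and -1.62 ± 0.70 for Cox7c and -1.52 ± 0.65 for Cox6b1 at week 4. The week 2 median was 0.02 without scrambled 3 mg/kg week 2 replicate 1, -0.40 without MIR29B 2 mg/kg week 0 replicate 2 and -0.42 without MIR29B 3 mg/kg week 0 replicate 2.

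Other mitochondrial genes from separate lists gave a backdrop. ATP synthase subunits had medians close to those of the members, at 0.67, -0.12 and -0.28 in the arm comparisons at weeks 0, 2 and 4 (18 genes), and Atp5d (1.70 ± 0.43, edgeR adjusted p = 0.0274) and Atp5g1 (1.48 ± 0.42, 0.0449) were called higher at week 2 in the scrambled arm. Ribosomal proteins of the cytosol, which are no part of mitochondria, had medians of 0.62, -0.07 and -0.38 in the same comparisons (80 genes). Mitochondrial ribosomal proteins had 0.35, -0.19 and -0.16 (78 genes). At week 2 in the scrambled arm 3 cytosolic and 4 mitochondrial ribosomal proteins were called higher (2.11% of all genes). The citric acid cycle list had 0.14, -0.16 and -0.05 (17 genes), with Idh3a called lower at week 2 in the MIR29B arm (-1.09 ± 0.31, edgeR adjusted p = 0.0308). Among genes of mitochondrial clearance, Ulk1, a kinase that starts autophagy, rose in the MIR29B arm at week 2 (1.19 ± 0.26, edgeR adjusted p = 0.00523) and week 4 (0.90 ± 0.26, edgeR adjusted p = 0.046), and Tomm20 rose at week 2 in the scrambled arm (0.91 ± 0.25, edgeR adjusted p = 0.0386). A list of respiratory chain assembly factors without the Sdhaf genes (39 tested), regulators of mitochondrial biogenesis (11 tested) and cytochrome c with Cyc1 (2 tested) had no gene called by edgeR.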

How the data were processed

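The deposited table holds raw read counts per transcript for 36 libraries. Per the submitters' processing notes, HISAT2 2.0.5, featureCounts 1.5.0-p3 and the mouse build GRCm38 were used; the counting options were not given in the sources used here. All deposited counts are even numbers, and dividing them by 2 was tried as an alternative. Of 25856 transcripts, 25650 were matched to gene symbols through RefSeq GRCm38.p6 and 132 through GENCODE M21, and 74 had no match. The transcript with the highest total was kept for each of 16812 genes, and 59 of 70 members had 1 transcript.

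Genes were kept by edgeR 4.0.16 filterByExpr (minimum count 10, minimum total 15), scaled by TMM and tested with the quasi-likelihood F test in R 4.3.3, two-sided, in 1 fit of all 36 libraries with a mean for each of 12 groups. The p-values were adjusted by Benjamini-Hochberg over 11953 genes, with a threshold of 0.05. The coefficient of variation between libraries was 0.5. Standard errors were obtained from the fold change and its F statistic, as |log2 fold change| over the root of F. Alternatives were DESeq2 1.42.0, RLE scaling, no filter, halved counts, the length index as a covariate, a replicate block, the mean over transcripts, and fits without single libraries, without 7 libraries over 5% ribosomal RNA and without 2 over 12% ribosomal protein counts; the last was chosen after seeing the data. The ribosomal RNA share also counted noncoding transcripts without a matched symbol. Leaving those 7 libraries out left 1 library in MIR29B 2 mg/kg week 2 and 1 in MIR29B 2 mg/kg week 4. The code was checked on simulated counts.

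Members and gene lists were chosen with earlier results of these data known. Named genes were the core subunits of complexes I to III (1 is not reported here, and Ndufs3 was added after its values were seen), Cox4i1, Cox5a, Cox5b, the isoform pairs, called members and the members with the highest and lowest fold changes. GENCODE exons of 26 of 70 members overlap another gene's exon, 16 of them by over 100 bases, and the counting's strand setting was not given in the sources used here.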

Additional observations from a re-analysis of the deposited data

Results flagged for a closer look

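For 12 members the 6 libraries of each arm and week were checked for a library far from the rest by Dixon's criterion. Of 72 sets, 12 had such a library. The criterion's rate of 1 in 20 holds for independent sets of normally distributed values. CPM was not logged here and the members share libraries and moved together, so 12 of 72 cannot be set against that rate. The 12 members were chosen after their values were seen. Values are CPM with the nearest other library of the set. MIR29B 2 mg/kg week 0 replicate 2 stood apart for Sdhaf2 at 12.57 (nearest 6.907), Ndufa4 at 301.4 (nearest 125.0), Cox6a1 at 6145 (nearest 2723) and Cox6b1 at 605.5 (nearest 257.2). Scrambled 3 mg/kg week 2 replicate 1 stood apart for Ndufs3 at 81.04 (nearest 10.65), Cox6b1 at 729.5 (nearest 243.0), Cox4i1 at 1559 (nearest 290.1) and Uqcrc1 at 145.6 (nearest 25.62). These are the libraries with the highest ribosomal protein shares, 12.18% and 15.48%.

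The other sets had 1 library apart each. Sdhaf2 was at 8.68 in MIR29B 3 mg/kg week 2 replicate 3 (nearest 5.316), Ndufa10 at 12.71 in MIR29B 3 mg/kg week 4 replicate 3 (nearest 9.116), Cox6a1 at 3317 in MIR29B 3 mg/kg week 4 replicate 2 (nearest 1900) and Uqcrc1 at 30.19 in scrambled 2 mg/kg week 0 replicate 3 (nearest 14.72).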

How the results depend on the processing

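Sdhaf1 stayed called in its 3 comparisons under each of the 9 alternatives and without any single library (adjusted p from 6.41e-05 to 0.0241). Calls of members are given with those of all genes, except for the fits without single libraries. At week 2 in the MIR29B arm (2, with 650 genes) there was 1 member with RLE scaling (638 genes), without libraries over 5% ribosomal RNA (115), with the mean over transcripts (627) and with the replicate block (644), 3 with DESeq2 (1095) and without 2 libraries over 12% ribosomal protein counts (653), 6 with the length index as a covariate (1467), 2 with no filter (777) or halved counts (751), and 1 to 3 without single libraries. At week 4 in the MIR29B arm (3, with 369 genes) there were 6 with DESeq2 (782), 17 with no filter (735), 2 with the replicate block (433), the length index (489) and the mean over transcripts (368), 1 without libraries over 5% ribosomal RNA (151), 1 without 2 libraries over 12% ribosomal protein counts (290), 3 with RLE scaling (349) or halved counts (435), and 1 to 5 without single libraries. At week 2 in the scrambled arm (0, with 384 genes) there were 11 with DESeq2 (948), 15 with no filter (902), 3 with halved counts (486), 1 with RLE scaling (417), 1 with the length index (562), 2 with the replicate block (415), and 0 to 10 without single libraries. With no filter 3 were called between the arms at week 0 (163) and 1 each in the differences between arms at weeks 2 (63) and 4 (72).

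With the length index as a covariate the medians of members were -0.12 at week 0 at 2 mg/kg and 0.21 at week 2 at 3 mg/kg between the arms, -0.2 at week 2 in the scrambled arm, and 0.29 and 0.01 for the differences between arms at weeks 2 and 4. Without the 2 libraries over 12% ribosomal protein counts they were 0.66 at week 2 between the arms, 1.1 at 3 mg/kg, -0.03 at week 2 in the scrambled arm and 0.34 for the difference between arms at week 2. Without single libraries these medians ran from -0.3 to 0.67, from -0.76 to 1.14, from -0.03 to 0.89 and from -0.88 to 0.02. The causes were not tested.

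Same-numbered libraries of different groups had a mean correlation of 0.0462, with 88 of 198 pairs over 0.1, against -0.0229 for other numbers, so that not every pair was over it and the numbers were not taken as pairing the samples. Of 36 libraries, 20 correlated best with their own number, and the lowest correlation of a same-numbered pair was -0.611. Whether libraries of a number share an effect was not tested. The replicate block left out Ndufa10 at week 2 and Ndufa4 at week 4 in the MIR29B arm and added Ndufc2 and Ndufs3 at week 2 in the scrambled arm. Counts of 10 to 214 limit Sdhaf1, and the 6 untested members are below what this depth can compare.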
